A study of Saccharomyces cerevisiae with 8 samples.

Results

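The genetic interaction between the not1-2 and spt3 mutations was read from all 8 yeast arrays of the series, 2 for each of 4 strains of Saccharomyces cerevisiae. The strains were the wild-type reference, the not1-2 mutant, the spt3 mutant and the not1-2 spt3 double mutant. All were grown in glucose-rich liquid medium at 30°C, moved to 37.5°C at an optical density of 0.2 and collected at 0.8. Labelled polyA RNA was hybridised, and the values are array signals compared on the log2 scale. The labels do not give what either allele alters, the genotypes at other loci, or whether the arrays of a strain came from separate cultures or clones, so a p-value here speaks of the spread among these arrays alone, and that spread could be technical. All 8 arrays of the series enter, with 7043 probe sets tested.

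Not1 is the product of CDC39 and the scaffold on which Ccr4-Not is built, a complex that removes the polyA tails of mRNAs and also acts on transcription. Spt3 belongs to the SAGA coactivator and helps the TATA-binding protein at promoters. A genetic interaction is present in RNA levels where 2 mutations together give something other than the sum of their separate log2 changes.

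The interaction of a probe set was the log2 difference that not1-2 makes in the spt3 strain minus the log2 difference that it makes in wild type, fitted with the replicate number as a block. A value of 0 means that not1-2 makes the same log2 difference in both backgrounds. A value below 0 can arise where not1-2 alone or spt3 alone is high, or where wild type alone or the double mutant alone is low. A value above 0 can arise in the opposite cases, and either can arise with no strain set apart. The probe sets were therefore sorted by strain. A strain was said to stand alone where its mean lay farther from the nearest other strain mean than the other 3 means lay from each other, and where it was the highest, or the lowest, on the arrays of replicate 1 and again on those of replicate 2. The sorting uses the same values as the interaction and is a description.

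The 4 strains were checked first. The SPT3 probe set read 25.3 and 15.5 in wild type, and the not1-2 arrays had 29.9 and 22.8. On the spt3 and double-mutant arrays it did not exceed 1.72, the floor to which low signals were set. TRP1, a tryptophan synthesis gene, was at this floor in wild type and not1-2 and lay between 36.0 and 56.2 in spt3 and the double mutant. Such a strain difference, shared by spt3 and the double mutant, cancels in the interaction, which was -0.22 ± 0.55 (SE, log2, 2 arrays per strain) for TRP1. The level of CDC39 had an interaction of -0.12 ± 0.61, or 0.63 without spt3 replicate 1 and -0.87 without spt3 replicate 2. For ACT1, a control with probe sets at both ends of the mRNA that reports on RNA integrity, the signal at the 3' end over that at the 5' end was 199.1 on wild-type replicate 1 and 36.8 on not1-2 replicate 1, and between 1.79 and 12.2 on the 6 other arrays.

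Only 6 of 7043 probe sets, 0.0852%, passed the interaction test, 3 below 0 and 3 above 0 (0.0426% each; limma, adjusted p under 0.05). An unadjusted p under 0.05 was reached by 714 probe sets, 10.1% of those tested. Of the 6 calls, 4 set wild type alone apart from the 3 mutants and 2 set not1-2 alone apart. The 4 were the pheromone genes MFA1, MFA2 and MF(ALPHA)1 and the mating-type gene HMRA1, and the 2 were SPG4 and CPP3.

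SPG4 is a gene known from stationary phase, when yeast stops dividing. Its signals were 10.6 and 4.30 in wild type, 147 and 62.6 in not1-2, 10.97 and 7.07 in spt3 and 10.2 and 7.24 in the double mutant. Both not1-2 arrays lay above all 6 others. not1-2 was 14.2-fold above wild type, while the double mutant was at 0.976 times spt3. The interaction was -3.86 ± 0.49 (adjusted p = 0.0368), and -3.90 and -3.83 on the arrays of replicate 1 and replicate 2.

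CPP3 gave 404 and 122 in wild type, 2616 and 1596 in not1-2, 295 and 95.5 in spt3 and 115 and 88.3 in the double mutant. Here too the not1-2 arrays were the highest 2 of the 8. not1-2 was 9.21-fold above wild type and the double mutant was at 0.601 times spt3. The interaction was -3.94 ± 0.53 (adjusted p = 0.0496), with -4.05 and -3.83 on the arrays of the 2 replicate numbers. SPG4 and CPP3 were the 2 calls just inside the threshold. SRX1 and URA6 were the first named genes outside it, both at adjusted p = 0.0566.

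The wild-type calls follow cell type. Haploid yeast of mating type a makes a-factor from MFA1 and MFA2, and alpha cells make alpha-factor from MF(ALPHA)1. MFA2 gave 4972 and 1448 in wild type, 18.0 and 11.5 in not1-2, 10.6 and 7.44 in spt3 and 15.0 and 17.5 in the double mutant. Its interaction was 8.41 ± 0.62 (adjusted p = 0.00176), with a not1-2 difference of -7.54 against wild type and of 0.86 against spt3.

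For MFA1 the wild-type signals were 3999 and 737, against 34.5 and 9.23 in not1-2, at most 4.82 in spt3 and 9.32 and 1.72 in the double mutant. Its interaction was 6.85 ± 0.54 (adjusted p = 0.00176), an upper bound because 1 double-mutant array was at the floor. MF(ALPHA)1 had the opposite pattern. Its signals were 14.9 and 17.1 in wild type, 534 and 1617 in not1-2, 1582 and 886 in spt3 and 706 and 1160 in the double mutant, with an interaction of -6.25 ± 0.69 (adjusted p = 0.0187). HMRA1, whose sequence is the same as that of the a1 gene of an a cell, gave 300.3 and 112.6 in wild type and at most 4.82 in any mutant. Its interaction was 7.35 ± 0.91 (adjusted p = 0.0367), with floor values on both sides of the difference, so its size is no bound. HMRA1 passed the filter on low signals through wild type alone, so that a high wild type was a condition of its being tested. Wild type thus carried a-type expression and all 3 mutants alpha-type expression. For every gene where wild type stood alone, this strain difference and the interaction of the mutations cannot be told apart. Wild type enters the interaction of every other probe set as well, SPG4 and CPP3 included. The part of this strain difference in those interactions was not tested.

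**Figure D1:**
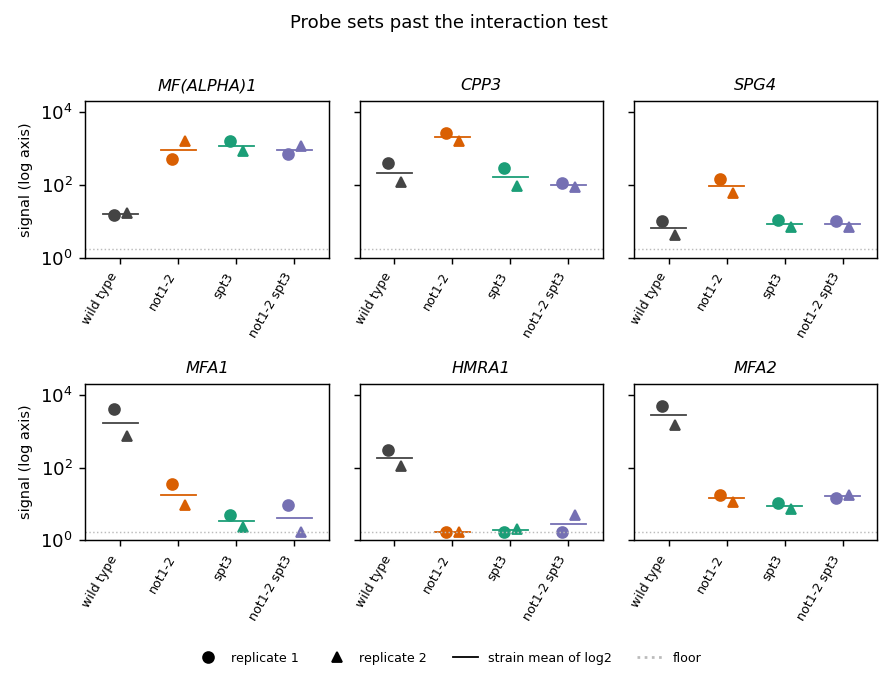
Signal on each array (log axis) of the 6 probe sets past the interaction test, by strain, with circles for replicate 1, triangles for replicate 2, a line at each strain's mean of log2 signals and a dotted line at the floor of 1.72. not1-2 stands alone for SPG4 and CPP3, and wild type stands alone for the 4 mating genes.

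The 6 calls rest on few arrays and on the block. Without the block 0 passed in limma, with 246 at an unadjusted p under 0.05, and MFA1 and MFA2 alone passed when the ACT1 ratio joined the block in the fit. Leaving out 1 array gave 0 below and 1 above 0 without wild-type replicate 1, and 0 and 2 without wild-type replicate 2. It gave 1 and 2 without not1-2 replicate 1 or without spt3 replicate 1, 0 and 2 without not1-2 replicate 2 or double-mutant replicate 2, and 1 and 3 without double-mutant replicate 1. Without spt3 replicate 2 it gave 53 and 62, of which wild type stood alone in 56 and not1-2 in 25. SPG4 and CPP3 passed in 3 of 18 alternative settings each, and kept their sign in all 18.

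The difference of not1-2 from wild type can also be set beside that of the double mutant from spt3, since the 2 share no array. Wild type and not1-2 differ in mating-type expression, whereas spt3 and the double mutant were both alpha-type. The difference from wild type therefore holds that strain difference too, for every probe set, and its part was not tested. Against wild type, not1-2 had 73 probe sets higher (1.04%) and 67 lower (0.951%), together 140 or 1.99% of those tested (limma with the block). That count rests on the block and on every array of the 2 strains: it was 3 without the block, and 3 again when either not1-2 array was left out. Leaving out the first or the second wild-type array gave 4 and 12. Against spt3, the double mutant had 0, with 46 (0.653%) at an unadjusted p under 0.05, or 10 without the block. The 73 higher probe sets had a median of 2.27 against wild type and of -0.12 in the spt3 background, with the middle 50% between -0.30 and 0.02. The 67 lower had medians of -1.79 and 0.04, with the middle 50% between -0.10 and 0.24. The values against wild type chose these probe sets and are larger for it. The differences in the spt3 background did not enter that choice, but the spt3 and double-mutant arrays helped to set the spread and the block of the fit.

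In 139 of the 140 the difference in the spt3 background was under 0.5 times that against wild type, as it was in 3980 of all 7043 probe sets. The exception among the 140 was a probe set that matches several genes, at 1.54 in the spt3 background. The 140 were chosen for a large difference against wild type, which favours a high count here and with arrays left out. The 2 differences had the same sign in 46 of the 140, or 32.9% (95% exact binomial interval 25.2 to 41.3, over probe sets that are not independent), against 46.4% over all probe sets tested. That share rests on single arrays, at 71.7% without spt3 replicate 1, 60% without double-mutant replicate 1, 22.3% without spt3 replicate 2 and 19.8% without double-mutant replicate 2. Without those arrays, in the same order, the difference in the spt3 background was under 0.5 times in 260 of 304, 86 of 90, 226 of 310 and 85 of 91 probe sets. Only 6 of all probe sets passed the interaction test itself, so for most of the 140 a difference between the backgrounds is given as a value and not as a call.

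**Figure D2:**
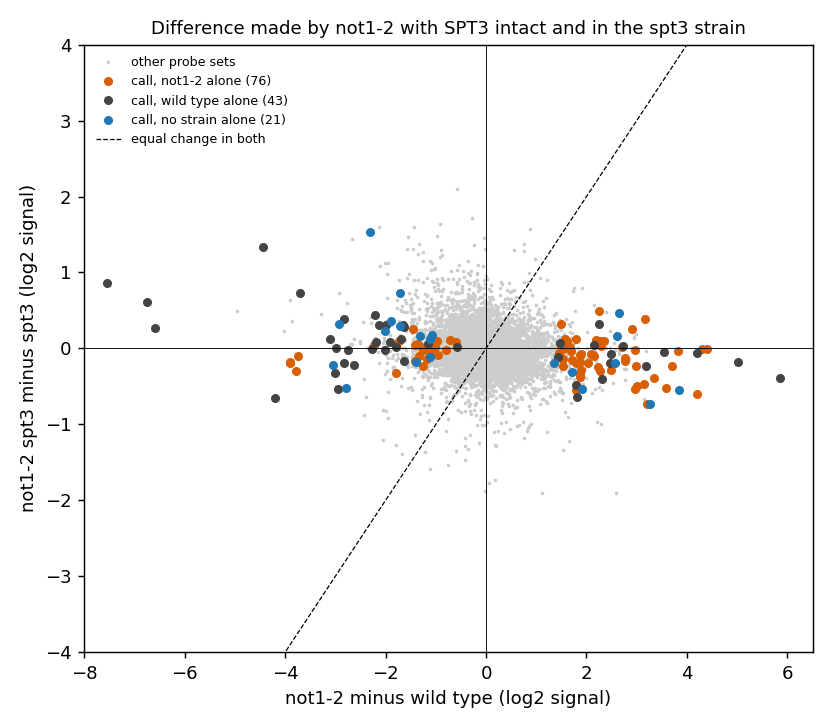
Each point is a probe set, with the log2 difference of not1-2 from wild type on the horizontal axis and of the double mutant from spt3 on the vertical axis; coloured points are the 140 that passed between not1-2 and wild type, by the strain that stood alone, and the dashed line marks equal change in both. The coloured points spread along the horizontal axis and stay near 0 on the vertical axis, where the medians were -0.12 for the higher and 0.04 for the lower ones.

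Sorting divided the 140 into 76 (54.3%) where not1-2 stood alone, 43 (30.7%) where wild type stood alone and 21 (15%) where no strain did. In none of them did spt3 or the double mutant stand alone. Over all 7043 probe sets not1-2 stood alone in 17.9%, wild type in 14.6%, spt3 in 2.16% and the double mutant in 1.35%; since the 140 were chosen for a difference between not1-2 and wild type, their larger shares for these strains follow from that choice. SRL1 and ARO9 lay just inside the sorting limit, with distances of 1.001 and 1.05 times the range of the other means. GCV3 and SUP16 lay just outside, at 0.987 and 0.985 times.

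The genes for which not1-2 alone was high formed the largest class, 50 probe sets of which 40 named 1 gene. Their median was 2.21 against wild type, -0.10 in the spt3 background and -2.30 for the double mutant against not1-2, and the sorting fixes that the last is below 0 and favours small values of the second. Apart from SPG4 and CPP3, the genes of this and the next classes did not pass the interaction test, and those described were chosen after their values were seen or for a small p within a list. The sorting also favours arrays of the lone strain that do not overlap with other strains. The share of such probe sets among all tested is not given here.

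SRX1 encodes sulfiredoxin, which repairs oxidised peroxiredoxins. It gave 105 and 48.6 in wild type, 858 and 863 in not1-2, 134 and 66.5 in spt3 and 57.8 and 74.9 in the double mutant. The not1-2 arrays lay 12.0-fold above wild type with no overlap with any other strain. Its interaction was -4.11 ± 0.58 (adjusted p = 0.0566). MPC3, which encodes part of the carrier that brings pyruvate into mitochondria, gave 39.7 and 34.4 in not1-2 and between 1.72 and 4.30 elsewhere, with an interaction of -4.80 ± 0.74 (adjusted p = 0.0779) and floor values that put the true interaction at or below this. With the floor at the 25th percentile it was -2.40.

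SNZ1 and SNO1, neighbouring genes of vitamin B6 synthesis, had the same order of strains. SNZ1 gave 298 and 129 in not1-2 and between 18.5 and 36.6 in the other strains, with an interaction of -2.98 ± 0.49 (adjusted p = 0.0865). SNO1 gave 81.2 and 66.3 in not1-2 and between 8.82 and 17.5 elsewhere, with -2.92 ± 0.52 (adjusted p = 0.109). HPF1, a cell wall mannoprotein, gave 707 and 870 in not1-2 and between 42.6 and 111 elsewhere, with -3.62 ± 0.61 (adjusted p = 0.0944), and -4.71 and -2.53 on the arrays of replicate 1 and replicate 2. In each of the 3 genes the lower not1-2 array stood above the highest array of any other strain.

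JLP1, a sulfonate dioxygenase, and FLO1, a flocculin that makes cells clump, were near the floor outside not1-2. JLP1 gave 33.0 and 39.6 in not1-2 and at most 4.91 elsewhere (interaction -4.40 ± 0.83, adjusted p = 0.116). The true value for JLP1 is at or below this, since wild-type and double-mutant arrays were at the floor, and it was -2.37 with the floor at the 25th percentile. FLO1 gave 65.4 and 55.2 in not1-2 and at most 5.35 elsewhere (-4.32 ± 0.78, adjusted p = 0.109). FLO1 was at the floor on arrays of both sides of the difference, so its interaction is no bound in either direction. MPC3, JLP1, FLO1, XBP1 and JEN1 passed the filter on low signals through not1-2 alone, so that a high not1-2 was a condition of their being tested.

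Stress and reserve genes were the next set. Msn2 and Msn4 are the factors that switch on general stress genes when yeast leaves rapid growth. Of the 45 Msn2 and Msn4 targets tested, 0 passed the interaction test (background 0.0852%), and 14 had an unadjusted p under 0.05 below 0 and 0 above, against 5.04% and 5.1% of all probe sets. The list median was -0.97, and -0.83 and -0.79 on the replicate 1 and 2 arrays, beside 0.06 for all probe sets, and 37 of 45 members lay below 0, against 46.7% of all probe sets. The median was -0.63 without not1-2 replicate 2 and -0.64 without spt3 replicate 1. The list median was 0.77 for not1-2 against wild type, 0.44 for spt3 against wild type and -0.01 for not1-2 in the spt3 background. In 11 members not1-2 stood alone and high, against 7.27% of all probe sets. In 10 wild type stood alone and low, against 6.29%.

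Members of the stress list took different patterns. TMA10, a small protein bound to ribosomes under stress, gave 139 and 106 in not1-2 and between 21.98 and 52.5 elsewhere (interaction -2.25 ± 0.43, adjusted p = 0.116). The glycogen phosphorylase gene GPH1 gave 82.2 and 85.6 in not1-2 and between 18.9 and 34.1 elsewhere (-2.06 ± 0.45, adjusted p = 0.166). XBP1, a stress-induced repressor, gave 23.5 and 40.7 in not1-2 and between 2.53 and 5.26 elsewhere (-2.77 ± 0.65, adjusted p = 0.19). In these 3 genes not1-2 stood alone.

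DDR2 and HSP12, both strongly stress-inducible, were instead intermediate in the spt3 strains. DDR2 gave 94.99 and 93.3 in wild type, 414 and 426 in not1-2, 276 and 196 in spt3 and 280 and 205 in the double mutant, so that wild type stood alone. Its interaction was -2.11 ± 0.42 (adjusted p = 0.127). HSP12 gave 67.4 and 70.3 in wild type, 463 and 945 in not1-2, 365 and 284 in spt3 and 313 and 121 in the double mutant, with -3.99 ± 0.69 (adjusted p = 0.103) and no strain alone. The trehalose and glycogen list, with 21 genes tested, had a median of -0.50 and 4 members at an unadjusted p under 0.05 below 0, against 5.04% of all probe sets. That median was -0.31 without not1-2 replicate 2, and -0.79 without not1-2 replicate 1 or without spt3 replicate 2. In this list not1-2 stood alone and high in 5 genes, and wild type alone and low in 5. The shares of all probe sets were 7.27% and 6.29%.

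Cell wall integrity genes encode the proteins with which yeast reinforces its wall. Of 24 tested 20 lay below 0, against 46.7% of all probe sets, with a median of -0.77, and -1.28 and -0.20 on the replicate 1 and 2 arrays. It was -0.48 without wild-type replicate 1, -0.40 without spt3 replicate 1 and -0.49 with the ACT1 ratio in the fit. PST1, a wall-anchored protein, gave 1111 and 1082 in not1-2 and between 252 and 405 elsewhere (interaction -1.67 ± 0.37, adjusted p = 0.166), so not1-2 stood alone. PIR3, a covalently bound wall protein, gave 22.9 and 23.4 in wild type, 224 and 813 in not1-2, 162 and 86.0 in spt3 and 78.9 and 162 in the double mutant. By its means wild type stood alone for PIR3, though not1-2 was also above both other mutants.

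Phosphate genes are induced when phosphate runs short. Of 19 tested 14 lay below 0, 7 of them at an unadjusted p under 0.05, against 46.7% and 5.04% of all probe sets. The median was -0.70, with -0.40 and -1.49 on the replicate 1 and 2 arrays, -1.07 without not1-2 replicate 1 and -0.34 without not1-2 replicate 2. The acid phosphatase gene PHO5 gave 253 and 303 in not1-2 and between 46.3 and 96.2 elsewhere (interaction -2.23 ± 0.54, adjusted p = 0.205). PHO89, a sodium-phosphate cotransporter, gave 50.01 and 106 in not1-2 and between 11.8 and 19.6 elsewhere (-2.08 ± 0.58, adjusted p = 0.27). PHO84, the high-affinity transporter, gave 70.6 and 173 in wild type, 348 and 1274 in not1-2, 504 and 571 in spt3 and 223 and 92.4 in the double mutant. No strain stood alone for PHO84, where not1-2 was 2.59 above wild type and the double mutant was at -1.90 against spt3 (interaction -4.49 ± 0.88, adjusted p = 0.127).

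Genes used on carbon sources other than glucose had medians below 0 too. The list of gluconeogenesis, glyoxylate and carboxylate uptake had 17 of 22 below 0, against 46.7% of all probe sets, and a median of -0.62, or -0.94 without double-mutant replicate 2. PCK1, the gluconeogenic carboxykinase, gave 522 and 403 in not1-2 and between 102 and 229 elsewhere (interaction -1.55 ± 0.44, adjusted p = 0.291). CYB2, a lactate dehydrogenase of the mitochondrion, gave 27.4 and 37.9 in not1-2 and between 7.74 and 18.1 elsewhere (-2.34 ± 0.51, adjusted p = 0.166). The medians were -0.57 over 23 peroxisomal genes, -0.40 over 23 genes of the tricarboxylic acid cycle and -0.56 over 40 of the respiratory chain. On the replicate 1 and 2 arrays these were -1.22 and -0.65, -0.81 and -0.04, and -0.65 and -0.31. Adding the ACT1 ratio to the fit gave -0.61, -0.22 and -0.26. Single arrays set much of the last 2 medians. Without spt3 replicate 1 the tricarboxylic acid median was -0.05 and the respiratory median -0.06, and without spt3 replicate 2 they were -0.76 and -0.92. Without not1-2 replicate 2 they were -0.26 and -0.11, and the tricarboxylic acid median was -0.25 without wild-type replicate 1 and -0.70 without wild-type replicate 2. In 5 peroxisomal, 5 tricarboxylic acid and 3 respiratory genes not1-2 stood alone and high, against 7.27% of all probe sets. In 4, 4 and 8 wild type stood alone and low, against 6.29%. Against wild type the respiratory list had a median of 0.33 in not1-2 and of 0.67 in spt3.

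A further 4 genes of the class were chosen after their values were seen. PRB1, the vacuolar protease B, gave 452 and 475 in not1-2 and between 75.5 and 198 elsewhere (interaction -1.86 ± 0.45, adjusted p = 0.205). DAK2, a dihydroxyacetone kinase, gave 83.0 and 38.5 in not1-2 and between 5.42 and 17.0 elsewhere (-1.76 ± 0.43, adjusted p = 0.205). Both not1-2 arrays of each gene were the highest of the 8. JEN1, the lactate and pyruvate permease, gave 27.9 and 33.1 in not1-2, 6.35 and 4.68 in wild type and at most 3.62 in the spt3 strains (-2.76 ± 0.72, adjusted p = 0.237), with floor values on both sides of the difference, so its size is no bound. PUT1, the proline oxidase, had 92.5 and 36.1 in not1-2 against 12.8 to 35.7 elsewhere, so that its lower not1-2 array was level with the highest of the others (-1.46 ± 0.46, adjusted p = 0.351).

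**Figure D3:**
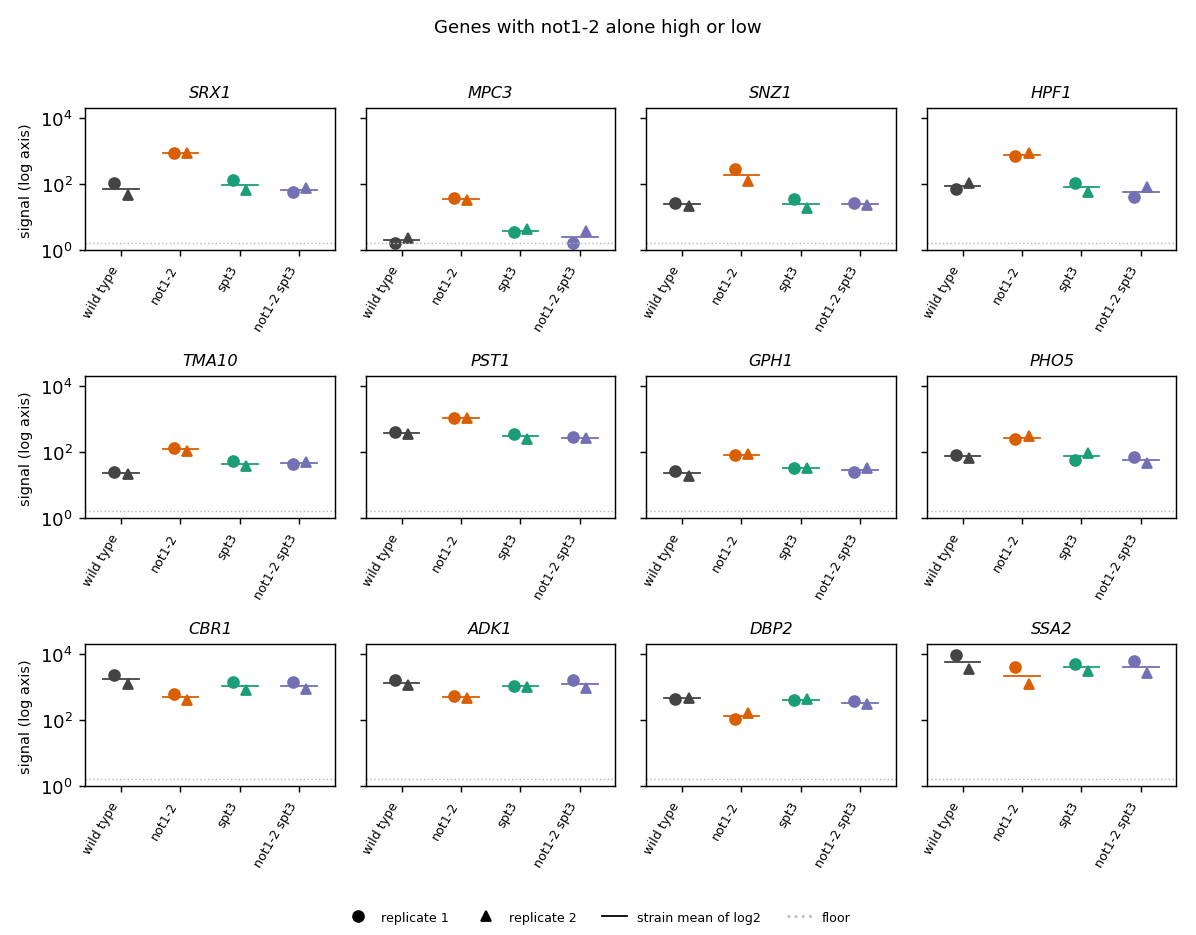
Signal on each array (log axis) of 12 genes for which not1-2 stood alone, high for SRX1 to PHO5 and low for CBR1 to SSA2, with circles for replicate 1, triangles for replicate 2, a line at each strain's mean of log2 signals and a dotted line at the floor. Both not1-2 points lie outside the range of the 3 other strains for every gene except SSA2, which the sorting that chose these genes favours. For SSA2 the replicate 1 array of not1-2, at 4094, lies above the replicate 2 arrays of the 3 other strains, and not1-2 is the lowest strain within each replicate number.

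The class in which not1-2 alone was low held 26 of the 140 probe sets, 21 of them naming 1 gene. The median was -1.34 against wild type and -0.01 in the spt3 background, and the sorting favours small values of the second here too. CBR1, a cytochrome b5 reductase, gave 2280 and 1284 in wild type, 599 and 412 in not1-2, 1414 and 835 in spt3 and 1443 and 866 in the double mutant. Both not1-2 arrays were below all others, and the interaction was 1.83 ± 0.29 (adjusted p = 0.0835).

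ADK1, the adenylate kinase that balances adenine nucleotides, gave 539 and 459 in not1-2 and between 959 and 1632 elsewhere (interaction 1.70 ± 0.32, adjusted p = 0.116). TUB2, which encodes beta-tubulin, gave 226 and 269 in not1-2 and between 476 and 810 elsewhere (1.46 ± 0.39, adjusted p = 0.243). GUA1, the GMP synthase, gave 625 and 516 in not1-2 and between 798 and 1606 elsewhere (1.15 ± 0.32, adjusted p = 0.27). In none of the 3 did a not1-2 array overlap with another strain, which the sorting favours. GUK1, the guanylate kinase, gave 688 and 608 in not1-2 and between 1052 and 1985 elsewhere (1.24 ± 0.29, adjusted p = 0.18). EFB1, a translation elongation factor subunit, gave 1298 and 836 in not1-2 and between 1596 and 2408 elsewhere (1.12 ± 0.28, adjusted p = 0.207). In each of these 5 genes the difference in the spt3 background was between -0.17 and 0.25, where the sorting favours small values. URA6, a uridylate kinase, was also lowest in not1-2, at 367 and 246, but lay between in spt3 at 651 and 464, so no strain stood alone (2.25 ± 0.32, adjusted p = 0.0566).

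Of 87 ribosome biogenesis genes 52 were above 0, a share near that of all probe sets, 3755 of 7043. Their median was 0.19, which became -0.04 without not1-2 replicate 1, and not1-2 stood alone as the lowest strain in 25, against 10.6% of all probe sets. The RNA helicase gene DBP2 gave 108 and 162 in not1-2 and between 303 and 479 elsewhere (interaction 1.47 ± 0.42, adjusted p = 0.293). GAR1, a component of small nucleolar ribonucleoproteins, gave 370 and 358 in not1-2 and between 499 and 877 elsewhere (1.04 ± 0.34, adjusted p = 0.368). Of 60 cytosolic ribosomal proteins 52 lay above 0, with a median of 0.28 that became -0.03 after quantile normalization.

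The cytosolic Hsp70 genes SSA1 and SSA2, close copies whose probe sets may share signal, were low in not1-2 on the arrays of each replicate number. SSA1 gave 11542, 7272, 9203 and 10387 in wild type, not1-2, spt3 and the double mutant of replicate 1, and 5053, 2971, 4116 and 4268 in those of replicate 2. not1-2 was the lowest strain on the arrays of each replicate number, although the strains overlapped across the numbers. The interaction was 0.83 ± 0.16 (adjusted p = 0.118), and 1.43 ± 0.31 for SSA2 (adjusted p = 0.166). After quantile normalization the SSA1 interaction was 0.18 and again did not pass. Heat shock and chaperone genes as a list had a median of 0.10, which became -0.18 without wild-type replicate 2.

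**Figure D4:**
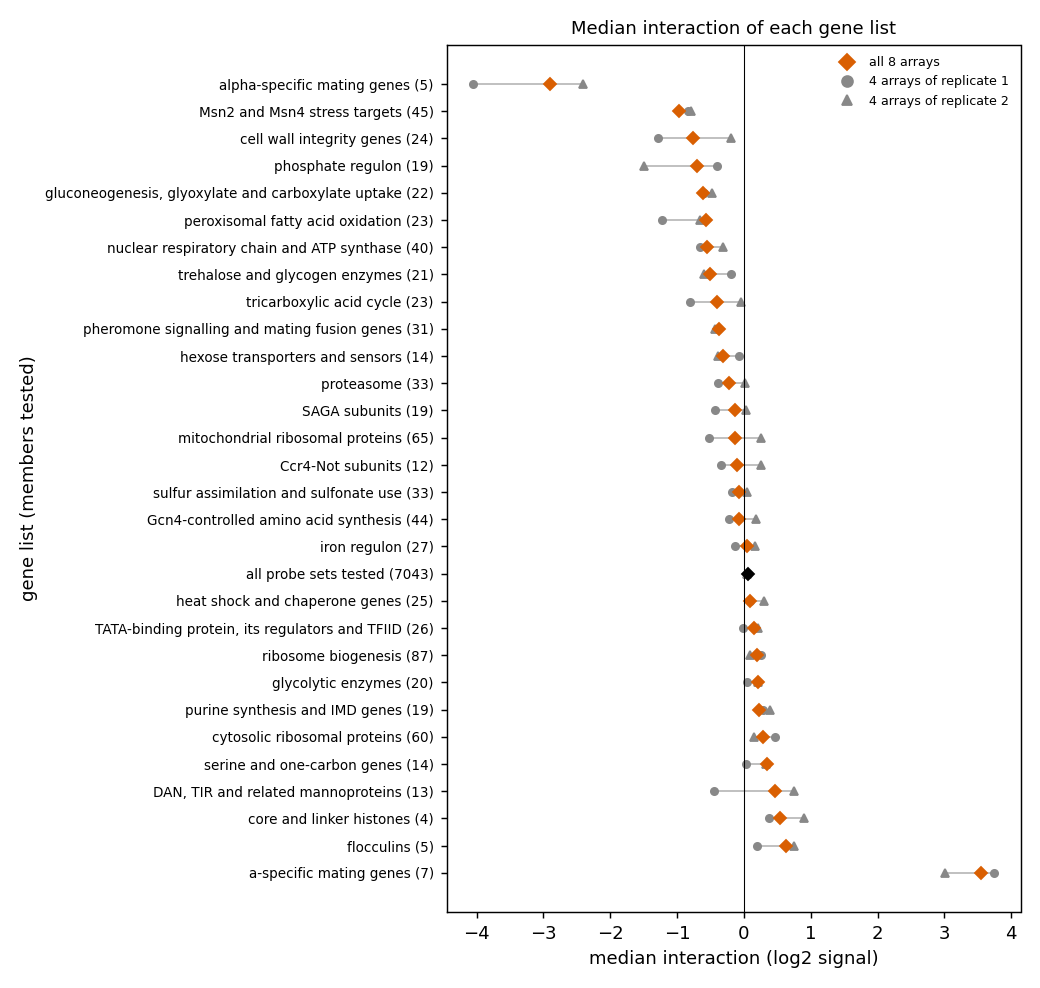
Median interaction (log2) of each of 29 gene lists, with the number of members tested in brackets: diamonds use all 8 arrays, circles the 4 arrays of replicate 1, triangles the 4 arrays of replicate 2, and the black diamond is the median of all probe sets tested. The a-specific and alpha-specific lists lie farthest from 0, and the stress list, at -0.97, has replicate medians of -0.83 and -0.79.

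Wild type stood alone in 43 of the 140 probe sets, high in 28 and low in 15. The 28 included 10 transfer RNA probe sets, of which 90 were among the 7043 tested. Of the 34 that named 1 gene, 9 were in the a-specific or alpha-specific lists. Those lists hold 7 and 5 of the 5355 probe sets tested that name 1 gene. All 7 a-specific genes lay above 0, against 3755 of all 7043 probe sets, and their median interaction was 3.55. In 7 of 7 wild type was alone and high, against 8.33% of all probe sets. AGA2, a subunit of the a-agglutinin, gave 192 and 99.5 in wild type and at most 9.84 in the mutants (3.55 ± 0.57, adjusted p = 0.0865). BAR1, which degrades alpha-factor, read 105 and 221 in wild type, with at most 20.9 in the mutants (2.41 ± 0.49, adjusted p = 0.136). STE2, the receptor for alpha-factor, read 24.9 and 126 in wild type, with at most 5.15 in the mutants (4.43 ± 0.996, adjusted p = 0.175), with 1 spt3 array at the floor, so that the true value is at or above this. STE2 and ASG7, another of the 7, passed the filter on low signals through wild type alone. A high wild type was thus a condition of their being tested.

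All 5 alpha-specific genes lay below 0, against 46.7% of all probe sets, and their median was -2.90. AFB1, the a-factor barrier of alpha cells, read 71.8 and 96.1 in wild type, where the lowest mutant array was 358 and the highest 787 (interaction -3.41 ± 0.58, adjusted p = 0.0944). STE3, the a-factor receptor, read 16.0 and 19.2 in wild type, and its mutant arrays ran from 65.1 to 174 (-2.69 ± 0.59, adjusted p = 0.166). SAG1, the alpha-agglutinin, differed in that not1-2 stood alone. It gave 57.2 and 64.1 in wild type, 323 and 530 in not1-2, 147 and 123 in spt3 and 80.3 and 189 in the double mutant, and the double mutant was -1.75 against not1-2.

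Outside the mating lists, wild type was alone and low for PLN1, ARO9, ARG3 and NQM1. PLN1, a lipid droplet protein, read 57.9 and 39.0 in wild type, and its mutant arrays ran from 188 to 420 (interaction -2.55 ± 0.63, adjusted p = 0.205). ARG3, the ornithine carbamoyltransferase of arginine synthesis, read 15.5 and 16.0 in wild type, and its mutant arrays ran from 31.95 to 111 (-2.65 ± 0.62, adjusted p = 0.193). No mutant array of either gene overlapped with wild type. PLB2, a phospholipase B, was alone and high in wild type at 154 and 275, against 45.8 to 78.8 in the mutants (2.01 ± 0.46, adjusted p = 0.18).

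The genes of the complexes themselves had medians near 0, beside 0.06 for all probe sets tested. Of 12 Ccr4-Not subunit genes 0 passed, and the median was -0.10, which became 0.26 without spt3 replicate 1. Of 19 SAGA subunit genes 0 passed, with a median of -0.14, or 0.07 without spt3 replicate 1. Of 26 genes of the TATA-binding protein, its regulators and TFIID 0 passed, with a median of 0.16, or -0.06 without not1-2 replicate 1. At an unadjusted p under 0.05 there were 1, 0 and 0 members in the 3 lists, against 10.1% of all probe sets. Over all probe sets 0.0852% passed the test, so 0 in lists of this size is near that share. The median standard error of the interaction of a single gene was 0.49.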

How the data were processed

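The deposited values are array intensities (linear scale, a single value for a probe set on an array). No source used here gives how the authors computed them; their trimmed mean (2% off each end) was 100.1 on every array. Of 9335 probe sets 60 controls were left out. After scaling the arrays to a common median, low signals were raised to a floor, the 10th percentile (1.72), before taking log2. Probe sets whose highest strain mean exceeded the 25th percentile (6.99) were kept, 7509, and the brightest per gene, 7043. Of these 5355 named 1 gene; symbols were matched by gene identifier to assembly R64.

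A mean per strain with the replicate number as a block was fitted with limma 3.58.1 in R 4.3.3 (intensity trend, 3 residual degrees of freedom), with Benjamini-Hochberg adjustment over 7043 at 0.05. The fit and the sorting were tested on simulated data. Same-numbered arrays deviated together in all 6 strain pairs (r from 0.188 to 0.739), so the numbers were taken to pair the arrays, although the labels name no shared batch. Replicates correlated at 0.864 to 0.950.

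The comparison and its gene lists (29 lists, 782 of 858 entries tested) were chosen with earlier results of these data known. Named genes were the calls, the 20 of smallest p, in each list the called members (up to 4) or failing those the 2 of smallest p, the strain and mating markers, and the genes on either side of a threshold; further genes of the sorted classes were chosen after their values were seen. The alternatives were other scalings, floors and filters, no trend, no block, the ACT1 ratio, all probe sets, a threshold of 0.1, another sorting rule and each array left out. Promoter motifs were planned and not analysed here.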

Additional observations from a re-analysis of the deposited data

Results flagged for a closer look

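For 6 genes the difference made by not1-2 was itself different between the SPT3-intact and the spt3 background, by the interaction test. The interactions were -6.25 for MF(ALPHA)1, -3.94 for CPP3, -3.86 for SPG4, 6.85 for MFA1, 7.35 for HMRA1 and 8.41 for MFA2. The 4 mating genes differ between wild type and every mutant, so the interaction and the difference in mating-type expression cannot be told apart. For CPP3 and SPG4 not1-2 was the strain that stood alone. Wild type enters their interaction too, and the part of the mating-type difference in it was not tested.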

How the results depend on the processing

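The 6 calls kept their sign in all settings, but few kept their side of the threshold, and the causes were not tested. Counts are given as below 0, above 0, not1-2 alone and wild type alone, against 3, 3, 2 and 4. No replicate block, a floor at the 25th percentile and no filter each gave 0, 0, 0 and 0, with 246, 666 and 776 probe sets at an unadjusted p under 0.05 in limma. A floor at the 5th percentile, a filter at the 50th percentile and keeping all probe sets each gave 1, 2, 0 and 3. No trend, and the replicate block plus the ACT1 ratio, each gave 0, 2, 0 and 2. A threshold of 0.1 gave 9, 8, 9 and 7. Leaving out 1 array gave 0 to 53, 1 to 62, 0 to 25 and 1 to 56, the highest each without spt3 replicate 2. No centring gave 4, 3, 3 and 4, and quantile normalization 3, 4, 3 and 4. The other sorting rule changed no count. The share of not1-2 calls with the same sign in the spt3 background, 32.9%, was 22.2% with a floor at the 25th percentile (27 calls), 0% of 1 call with no filter and 0% of 3 calls with no replicate block; leaving out 1 array gave 0 to 71.7%. The double mutant against spt3 gave 0 calls in each setting run, with between 4 and 548 at an unadjusted p under 0.05. The list medians of the mating, stress, cell wall, phosphate, gluconeogenesis, peroxisome, trehalose, respiratory and tricarboxylic acid genes kept their sign in 18 of 18 settings each, but their sizes moved, from -0.92 to -0.06 for the respiratory and from -0.76 to -0.05 for the tricarboxylic acid genes.

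Arrays carry no read depth; 2 per strain limit the precision, and 3 residual degrees of freedom support the blocked fit.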

Other observations

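Transfer RNA probe sets, a group chosen after its values were seen and in no list, had wild type alone and high in 41 of 90 and not1-2 alone and low in 17, against 8.33% and 10.6% of all probe sets. The median interaction was 1.58, with 87 of 90 above 0, 0 past the test in limma and 41 at an unadjusted p under 0.05, against 5.1% of all probe sets above 0. Within replicate 1 it was 3.10, within replicate 2 it was 0.25, and adding the ACT1 ratio to the fit gave 1.24. The median tRNA signal was 150 and 68.6 in wild type, 44.3 and 24.4 in not1-2, 40.0 and 66.6 in spt3 and 102 and 30.7 in the double mutant, so that the strains overlapped. These probe sets may match related copies, and the part of RNA integrity in their signal was not tested.

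Pheromone signalling and mating fusion genes, which both cell types use, had 21 of 31 below 0 and not1-2 alone high in 8, against 46.7% and 7.27% of all probe sets. The median was -0.38, and -0.16 without spt3 replicate 1 or without double-mutant replicate 1 and -0.57 without spt3 replicate 2. PRM10 gave 178 and 181 in not1-2 and between 46.1 and 83.6 elsewhere, with an interaction of -1.45 ± 0.42 (adjusted p = 0.299). COB, which encodes cytochrome b in the mitochondrial genome, was at the floor on both not1-2 arrays and between 6.19 and 56.5 on the others, with an interaction of at least 3.49 (SE 0.87, adjusted p = 0.207), or 1.38 with the floor at the 25th percentile. SER3, a serine synthesis gene, gave 5.08 and 9.92 in wild type, 10.6 and 18.0 in not1-2, 59.6 and 64.9 in spt3 and 51.2 and 74.8 in the double mutant, with an interaction of -0.97 ± 0.44 (adjusted p = 0.506).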
